A study of Caenorhabditis elegans with 10 samples.

Results

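The fatty acid desaturases of Caenorhabditis elegans are encoded by 7 genes, fat-1 to fat-7, which were taken by name from the count tables of dauers, the arrested larval stage. All 7 were found among 20222 genes, and 6 of them had enough reads to be tested among 12499 genes. The comparison was between dauers of the double mutant chd-7(gk290);daf-2(e1370) and dauers of daf-2(e1370), with 5 libraries of each genotype, called chd-7;daf-2 (or the double mutant) and daf-2 here. Both genotypes carry the daf-2 allele, a change in the insulin-like receptor that gives dauers at 25°C, so no library comes from animals with a normal receptor. Eggs of synchronized populations stayed at that temperature for 10 days before the dauers were frozen, and the total RNA of whole animals was used. The labels name 1 strain per genotype, give no sex, and do not say whether the 5 libraries came from separate cultures. The p-values therefore reflect how far these libraries scatter, and part of that scatter may be technical.

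Desaturases place double bonds into fatty acyl chains at fixed positions, and so set how fluid membranes are and which signalling lipids can be made. In the worm the chain of steps begins with the delta-9 desaturases, FAT-5, which prefers palmitoyl-CoA, and FAT-6 and FAT-7, which make oleic acid from stearoyl-CoA. FAT-2, the delta-12 enzyme, turns oleic into linoleic acid, a step that mammals lack. FAT-3 (delta-6) and FAT-4 (delta-5) build the long polyunsaturated acids together with elongases, and FAT-1, the omega-3 desaturase, converts omega-6 into omega-3 acids and also has no mammalian counterpart. The intestine is the worm's main organ of fat synthesis and storage.

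Of the 7 genes, 5 lie on chromosome IV and the other two on chromosome V (WBcel235). The gene fat-1 spans 13315644 to 13318811 on the plus strand of chromosome IV. Its neighbour fat-2 spans 13323873 to 13326395 on the same strand, 5061 bases downstream, with no protein-coding gene between them. The genes fat-4 (9799429 to 9802226) and fat-3 (9803023 to 9806119) stand on the plus strand of the same chromosome only 796 bases apart. The gene fat-6 lies at 11913692 to 11915687 on its minus strand. On chromosome V, fat-7 lies at 7151353 to 7153146 (minus strand) and fat-5 at 17725004 to 17726818 (plus strand). Exons of fat-5 share 28 bases with a gene on the other strand, twk-42, and the exons of the other members overlap no annotated gene.

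Read totals per library ranged from 7331885 to 14997608. Values are given as CPM, the count scaled to library size with TMM factors, and levels of different genes are compared as RPKM, which is CPM per kilobase of exon. The chd-7 transcript averaged 265.5 CPM in the double mutant and 230.1 CPM in daf-2 (log2 fold change 0.21 ± 0.10 SE, adjusted p = 0.1375), and because the reads are summed along the full gene, this value is no check of the gk290 label. Dauer markers were read in every library, and all 8 were tested. While 18.3% of all genes tested were called as lower in the double mutant, 2 of these markers were (cut-1 and sip-1) and 6 were not called. Their median log2 fold change was -1.098. The log2 fold changes of mtl-1 (0.98), sod-3 (0.31) and ctl-1 (0.24) were positive, though not called, and those of the other markers were negative. Summed levels of the 8 markers overlapped, at 1054 to 1953 CPM in the double mutant and 1030 to 1768 CPM in daf-2. Their mean log2 level, relative to the daf-2 mean, was -1.11 and -1.36 in chd-7;daf-2 replicates 3 and 4 and -0.40 to -0.27 in the other 3 libraries of that genotype, against -0.30 to 0.68 in daf-2. Some libraries stood apart or stood close. Germline markers in chd-7;daf-2 replicate 4 lay at -0.28 (log2, relative to the daf-2 mean), against -3.14 to -2.07 in the other 4 chd-7;daf-2 libraries, and the highest levels of yolk and uterine-type genes were those of daf-2 replicates 2 and 3. These are the 3 libraries called set apart. Read counts of chd-7;daf-2 replicates 1 and 2 (chi-square per degree of freedom 5.55) and 3 and 4 (6.58), and of daf-2 replicates 4 and 5 (3.83), were much closer than those of the other pairs (15.99 to 67.45). Results are also given without the 3 libraries set apart, or with the close pairs summed, where that changes them. Each library was kept as 1 replicate. Counts of no pair agreed within sampling noise, but this does not show that the close pairs are independent. Separate preparations from the same culture could also differ by more than sampling noise.

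Of the 6 tested desaturases, fat-2, fat-1 and fat-3 were higher in the double mutant and none was lower, at an adjusted p under 0.05 (edgeR's quasi-likelihood test, adjusted over all genes tested). Over all genes tested, 36.2% were called in either direction, 17.9% as higher and 18.3% as lower. The 6 desaturases had a median of 0.25 in log2 fold change, against -0.03 for all genes tested. Leaving out replicate 3 of the double mutant gave a median of 0.08, and leaving out its replicate 1 gave 0.37. The transcript of fat-2 changed most, by 4.42-fold, and that of fat-1 by 1.547-fold. The gene fat-2 was the only member called as higher with a log2 fold change of 1 or more, as were 7.74% of the genes tested. The genes fat-4, fat-5 and fat-6 did not pass the test, and fat-7 was hardly read in either genotype. The count of 3 was 2 without chd-7;daf-2 replicate 1, 2, 3 or 4 or daf-2 replicate 2, 3 or 4, and also 2 without the 3 libraries set apart or with close pairs summed, each time by the loss of fat-3.

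**Figure D1:**
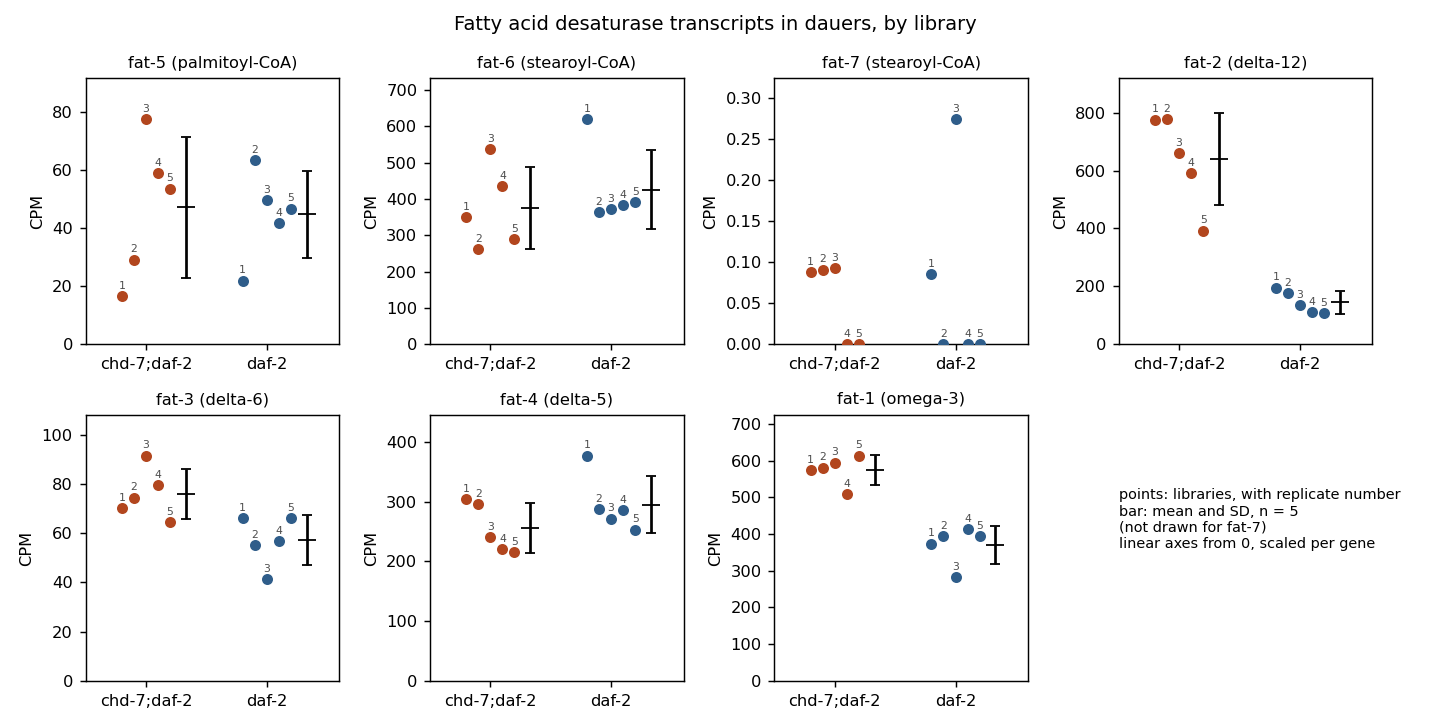
CPM of each desaturase transcript in every library, chd-7;daf-2 on the left and daf-2 on the right of each panel, with replicate numbers at the points. The bar is the mean and SD (n = 5) and is not drawn for fat-7. The axes are linear, start at 0 and differ between genes. The 5 fat-2 points of chd-7;daf-2 (392 to 778 CPM) all lie above those of daf-2 (107 to 195 CPM), the fat-1 points are also separate, and those of the other genes overlap.

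The delta-12 desaturase gene fat-2 had 776, 778, 661, 592 and 392 CPM in chd-7;daf-2 replicates 1 to 5, against 195, 177, 134, 111 and 107 CPM in daf-2 replicates 1 to 5. Every chd-7;daf-2 library lay above every daf-2 library, the lowest chd-7;daf-2 library being replicate 5 and the highest daf-2 library replicate 1. The means were 640.0 ± 159 CPM in the double mutant and 145 ± 39.8 CPM in daf-2 (SD, n = 5 each). The log2 fold change was 2.14 ± 0.23 (SE), a fold of 4.42 with a 95% interval of 3.13 to 6.25 (adjusted p = 6.16e-05). In size it exceeded the change of 96.1% of the genes tested. Leaving out any single library kept the log2 fold change between 2.05 and 2.27, and without the 3 libraries set apart it was 2.24 (adjusted p = 0.00179).

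The omega-3 desaturase gene fat-1, which acts on the products that FAT-2 starts, had 575, 581, 595, 508 and 614 CPM in the double mutant, against 374, 394, 282, 412 and 394 CPM in daf-2. The groups did not overlap, although the gap between the lowest chd-7;daf-2 library (replicate 4) and the highest daf-2 library (replicate 4) was small beside that of fat-2. Non-overlap of the genotypes was thus seen in 2 of the 6 tested members, while it was seen in 22.7% of all genes tested. The means were 575 ± 39.9 CPM in the double mutant and 371 ± 51.7 CPM in daf-2 (SD, n = 5 each), and the log2 fold change was 0.63 ± 0.12 (SE, adjusted p = 0.00224). It stayed between 0.54 and 0.67 when any single library was left out.

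The delta-6 desaturase gene fat-3 gave a smaller and less certain difference. Its values were 70.1, 74.4, 91.4, 79.4 and 64.5 CPM in the double mutant, against 66.1, 55.2, 41.4, 56.7 and 65.97 CPM in daf-2. The lowest chd-7;daf-2 library, replicate 5, lay below daf-2 replicates 1 and 5, so the groups overlapped. The log2 fold change was 0.41 ± 0.14 (SE, adjusted p = 0.0379). The call was lost without chd-7;daf-2 replicate 1, 2, 3 or 4 or daf-2 replicate 2, 3 or 4 (adjusted p = 0.0534 to 0.0930), and without the 3 libraries set apart the log2 fold change was 0.25 (adjusted p = 0.226).

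The delta-5 desaturase gene fat-4 did not pass the test. It was read at 304, 296, 241, 220.3 and 215 CPM in the double mutant, against 377, 287, 272, 286 and 253 CPM in daf-2. The groups overlapped, since chd-7;daf-2 replicates 1 and 2 lay above 4 of the daf-2 libraries. The log2 fold change was -0.21 ± 0.14 (SE, adjusted p = 0.273), with a 95% interval of -0.52 to 0.10, so a fall of up to 0.52 or a small rise is within the error of these libraries. Without daf-2 replicate 1, the highest fat-4 library, it was -0.11 (adjusted p = 0.532).

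Among the delta-9 desaturases, fat-6 was read most. It had 351, 261, 539, 435 and 290.4 CPM in the double mutant, against 621, 364, 372, 384 and 391 CPM in daf-2. The groups overlapped, with daf-2 replicate 1 far above the other 4 daf-2 libraries and chd-7;daf-2 spread on both sides of them. The log2 fold change was -0.18 ± 0.22 (SE, adjusted p = 0.527), with a 95% interval of -0.66 to 0.29. It ranged from -0.35 (without chd-7;daf-2 replicate 3) to -0.01 (without daf-2 replicate 1) when single libraries were left out, and was -0.38 without the 3 libraries set apart. None of these passed the test (adjusted p = 0.208, 0.964 and 0.343).

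The palmitoyl-CoA desaturase gene fat-5 was the most variable of the 6 tested members. Its values were 16.6, 29.2, 77.6, 58.9 and 53.6 CPM in the double mutant, against 21.9, 63.5, 49.5, 41.7 and 46.7 CPM in daf-2. The range within a genotype was 4.68-fold in the double mutant and 2.90-fold in daf-2, and replicates 1 and 2 of the double mutant and replicate 1 of daf-2 were low. The SD of its log2 CPM within genotypes was 0.75, above that of 94.3% of the genes tested, whereas that of fat-1 (0.17) was above only 20.4%. The log2 fold change of 0.08 ± 0.38 (SE, adjusted p = 0.886) had a 95% interval of -0.77 to 0.92, which does not show that the genotypes were alike, and its sign changed without daf-2 replicate 1 (-0.10) or without chd-7;daf-2 replicate 3 (-0.17) or 4 (-0.01).

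The second stearoyl-CoA desaturase gene, fat-7, had 1, 1, 1, 0 and 0 reads in the double mutant and 1, 0, 3, 0 and 0 reads in daf-2. These 7 reads stand beside 44679 reads of its close paralogue fat-6 in the same 10 libraries. No library was above the limit that a count of 0 allows, which is 3 reads or between 0.196 and 0.393 CPM per library and covers counting error only. No fold change is given, and the planned ratio of fat-7 to fat-6 reads was not computed because 5 libraries held no fat-7 read. Reads that align to both paralogues equally well were tallied apart from the genes, so stretches the 2 genes share would be missing from both counts.

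Compared per length, the order of the transcripts differed between genotypes. In the double mutant fat-2 was the highest (510 ± 127 RPKM, SD, n = 5), followed by fat-1 (406 ± 28.2), fat-6 (322 ± 96.9), fat-4 (166 ± 27.2), fat-3 (50.9 ± 6.87) and fat-5 (42.7 ± 22.02). In daf-2 fat-6 was the highest (366 ± 93.7 RPKM), followed by fat-1 (262 ± 36.5), fat-4 (192 ± 31.04), fat-2 (115 ± 31.7), fat-5 (40.5 ± 13.7) and fat-3 (38.3 ± 6.80). Within chd-7;daf-2 the libraries of fat-2, fat-1 and fat-6 overlapped in RPKM, as did those of fat-3 and fat-5. Within daf-2 the neighbours fat-1 and fat-4 overlapped, as did fat-5 and fat-3, while fat-6 lay above fat-1 and fat-4 above fat-2 in all libraries. The share of fat-2 in the summed RPKM of the 7 genes was 33.8% ± 6.19 in the double mutant and 11.3% ± 2.20 in daf-2, and that of fat-6 was 21.4% ± 5.097 in the double mutant and 35.8% ± 4.18 in daf-2. The delta-9 genes together came to 365 ± 114 RPKM in the double mutant and 406 ± 81.9 RPKM in daf-2. The genes fat-1 to fat-4 together came to 1132 ± 152 RPKM in the double mutant and 607 ± 74.7 RPKM in daf-2. Within this second sum fat-2 differed most between the genotypes, and the mean of fat-4 was lower in the double mutant. The shares are parts of the same sum, so a higher share of fat-2 leaves less for the other genes. That of fat-4, for example, was 11.1% ± 1.52 in the double mutant and 18.9% ± 1.08 in daf-2. Shares and sums are descriptions, with no test.

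**Figure D2:**
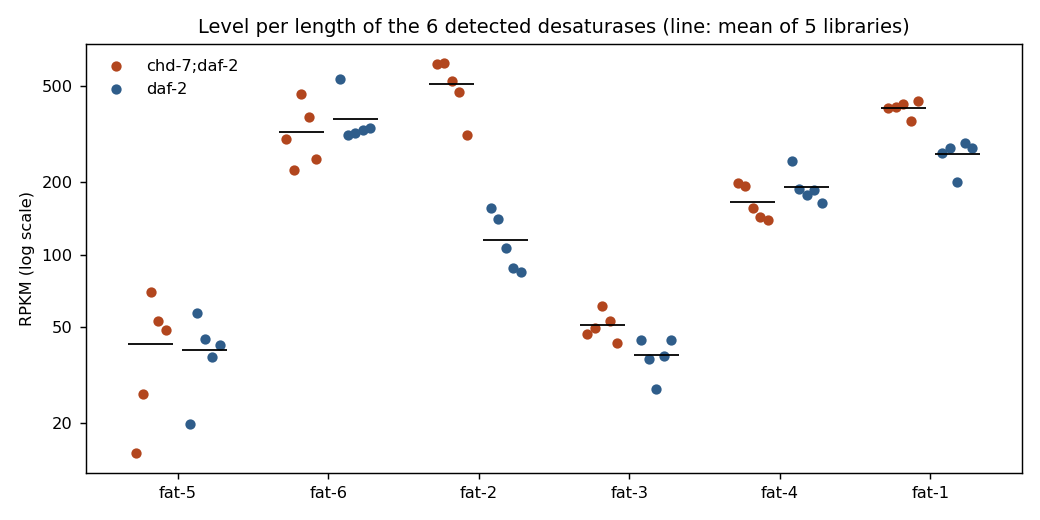
RPKM of the 6 detected desaturases in each library on a log axis, chd-7;daf-2 to the left of daf-2 for each gene, with a line at the mean of 5 libraries. The gene fat-7 is left out because it had at most 3 reads in a library. The fat-2 libraries reach 620.1 RPKM in the double mutant and 156 RPKM in daf-2, and fat-5 and fat-3 are the lowest genes in both genotypes.

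Because ratios of 2 genes within a library do not depend on how libraries are scaled, they were used to test whether pairs of desaturase genes moved alike. The log2 ratio of fat-1 to fat-2 reads was -0.43, -0.42, -0.15, -0.22 and 0.64 in the double mutant, against 0.94, 1.15, 1.07, 1.90 and 1.89 in daf-2. All 5 chd-7;daf-2 libraries lay below all daf-2 libraries, with replicate 5 nearest to them. The means were -0.12 ± 0.44 in the double mutant and 1.39 ± 0.47 in daf-2 (SD, n = 5 each), a difference of -1.51 (exact permutation p = 0.00794, two-sided and the smallest that 5 against 5 libraries allow, adjusted to 0.0238 over 3 ratios). The 2 adjacent genes thus differed in their change between genotypes by more than the spread between libraries. Without the 3 libraries set apart the difference was -1.67 but missed the threshold (exact permutation, adjusted p = 0.171), where the smallest unadjusted p that 4 against 3 libraries allow is 0.0286.

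The log2 ratio of fat-4 to fat-3 reads, the other adjacent pair, was 2.12, 1.99, 1.40, 1.47 and 1.74 in the double mutant, against 2.51, 2.38, 2.72, 2.33 and 1.94 in daf-2. The groups overlapped through daf-2 replicate 5, which lay below chd-7;daf-2 replicates 1 and 2. The difference was -0.63 (exact permutation p = 0.0238, two-sided, adjusted to 0.0357), and the call was lost without daf-2 replicate 1, 2, 3 or 4 (adjusted p = 0.0595 to 0.0714) and without the 3 libraries set apart (-0.45, adjusted p = 0.214). The log2 ratio of fat-5 to fat-6 was -3.14 ± 0.75 in the double mutant and -3.30 ± 0.89 in daf-2 (SD, n = 5 each), a difference of 0.17 (exact permutation p = 0.635, two-sided).

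**Figure D3:**
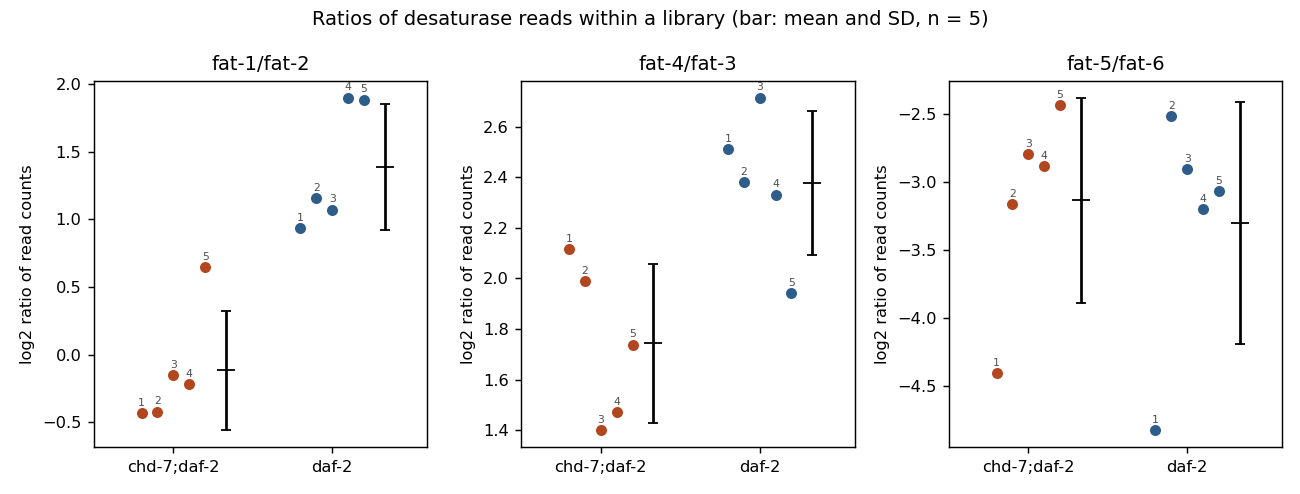
Log2 ratios of raw read counts within each library for fat-1 over fat-2, fat-4 over fat-3 and fat-5 over fat-6, chd-7;daf-2 left and daf-2 right, with the mean and SD (n = 5). The fat-1 over fat-2 ratio is lower in all 5 chd-7;daf-2 libraries (at most 0.64) than in any daf-2 library (at least 0.94), and the fat-5 over fat-6 ratios overlap widely.

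Among the regulators of desaturase genes, 3 of 10 tested members were higher and none was lower, and their log2 fold changes had a median of 0.18. Over all genes tested, 17.9% were called as higher and 18.3% as lower. The gene sbp-1, which encodes the worm SREBP, a transcription factor of lipid synthesis, had 42.1 ± 5.72 CPM in the double mutant and 29.9 ± 1.69 CPM in daf-2 (log2 fold change 0.49 ± 0.11, adjusted p = 0.00484). Its Mediator partner gene mdt-15 had 232 ± 21.5 CPM in the double mutant and 159 ± 19.6 CPM in daf-2 (0.54 ± 0.12, adjusted p = 0.00439). The acyl-CoA dehydrogenase gene acdh-11, known to hold fat-7 expression down during heat adaptation, had 207 ± 32.6 CPM in the double mutant and 130 ± 25.0 CPM in daf-2 (0.67 ± 0.15, adjusted p = 0.00641). The call of sbp-1 was lost with the close pairs summed (log2 fold change 0.42, adjusted p = 0.0599), and that of acdh-11 without the 3 libraries set apart (0.47, adjusted p = 0.0610). The nuclear receptor gene nhr-49, whose product activates delta-9 desaturase genes, was named after its values were seen: it had 150 ± 2.88 CPM in the double mutant and 142 ± 23.6 CPM in daf-2 (0.07 ± 0.12, adjusted p = 0.648). Exons of mdt-15 overlap other genes by 93 bases on its own strand and 95 on the other, exons of sbp-1 overlap a gene on the other strand by 48 bases, and the strand setting of the counting is not given in the sources used here.

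Upstream of the desaturases, the gene of fatty acid synthase, fasn-1, rose by 0.85 ± 0.13 on the log2 scale, with 588 ± 50.4 CPM in the double mutant and 327 ± 54.5 CPM in daf-2 (adjusted p = 0.000580). Of the 4 genes of fatty acid synthesis it was the only one called as higher, and the ATP-citrate lyase gene acly-2 was lower (-1.04 ± 0.30, adjusted p = 0.0189), a call lost without chd-7;daf-2 replicate 1 (adjusted p = 0.0501). In the elongation cycle, 3 of 10 tested genes were higher and 2 lower (median 0.21), against 17.9% and 18.3% of all genes tested. The elongase gene elo-5, which serves branched-chain acids, had 15.3 ± 3.20 CPM in the double mutant and 72.2 ± 7.20 CPM in daf-2 (-2.24 ± 0.15, adjusted p = 3.02e-06). The elongase gene elo-3 rose by 0.53 ± 0.10 (adjusted p = 0.00151) and the dehydratase gene hpo-8 by 0.38 ± 0.09 (adjusted p = 0.00883), and the ketoacyl reductase gene let-767 was lower (-0.42 ± 0.12, adjusted p = 0.0219). With the close pairs summed, which leaves fewer libraries, the calls of hpo-8 (0.37, adjusted p = 0.0722), elo-4 (0.62, adjusted p = 0.133) and let-767 (-0.39, adjusted p = 0.148) were lost. The elongase gene elo-4 rose by 0.72 ± 0.22 (adjusted p = 0.0277), a call also lost without chd-7;daf-2 replicate 1 or 2 or daf-2 replicate 1, 4 or 5 (adjusted p up to 0.0745) and with a value of 1.14 without the 3 libraries set apart. Exons of elo-3, elo-4, elo-5, hpo-8 and acly-2 overlap genes on the other strand by 40 to 162 bases.

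Desaturases draw their electrons from cytochrome b5. None of the 3 tested genes of that system was called (median 0.19), against 36.2% of all genes tested. The gene cytb-5.2 had 340.0 ± 57.4 CPM in the double mutant and 296 ± 52.8 CPM in daf-2 (adjusted p = 0.329), and cytb-5.1 had 113 ± 14.7 CPM in the double mutant and 99.1 ± 18.2 CPM in daf-2 (adjusted p = 0.288). The 2 sphingolipid desaturase genes, which belong to a separate family, were not called either. F33D4.4 had 58.8 ± 5.11 CPM in the double mutant and 58.3 ± 2.36 CPM in daf-2 (log2 fold change 0.01 ± 0.09, adjusted p = 0.928), and ttm-5 had 17.4 ± 3.10 CPM in the double mutant and 16.4 ± 2.96 CPM in daf-2 (adjusted p = 0.731).

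Phosphatidylcholine is a main membrane lipid into which the products of FAT-2 go. Of 5 tested genes of its synthesis, 1 was higher and 1 lower (median 0.01), against 17.9% and 18.3% of all genes tested. The gene pmt-1, encoding the methyltransferase of the first step from phosphoethanolamine to phosphocholine, had 1590, 1546, 1338, 1281 and 846 CPM in the double mutant, against 332, 343, 356, 211 and 224 CPM in daf-2. The groups did not overlap, and as for fat-2 the lowest chd-7;daf-2 library was replicate 5 and the lowest daf-2 libraries were replicates 4 and 5. Its log2 fold change was 2.17 ± 0.21 (SE, adjusted p = 3.13e-05). The gene of the later methylation steps, pmt-2, named after its values were seen, had 135 ± 24.8 CPM in the double mutant and 134 ± 28.1 CPM in daf-2 (adjusted p = 0.958). The gene pcyt-1, whose product makes CDP-choline, was lower (-0.85 ± 0.23, adjusted p = 0.0155), but without the 3 libraries set apart its log2 fold change was -0.35 (adjusted p = 0.0756).

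When the genes most like each called desaturase were sought among the 9794 genes that averaged 5 CPM or more, pmt-1 came out nearest to fat-2. Likeness was the root mean square difference over the 10 libraries between log2 CPM profiles centred on each gene's mean, and it was 0.16 for pmt-1, against a median of 1.17 over all candidates. The next were F43D9.1 (0.17) and Y49E10.16 (0.19). The nearest to fat-1 were dhs-9 (0.09), dif-1 (0.10) and ost-1 (0.11), and to fat-3 swan-1 (0.11), F56C11.6 (0.12) and rei-2 (0.12), with medians of 0.45 and 0.41 over all candidates. The measure holds the genotype difference as well as the variation within genotypes, and the nearest of so many genes will be close to any profile. Between fat-2 and the other desaturases the difference was 0.855 to 1.41, and between pairs of the tested members without fat-2 it was 0.21 (fat-1 and fat-3) to 0.849 (fat-4 and fat-5).

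**Figure D4:**
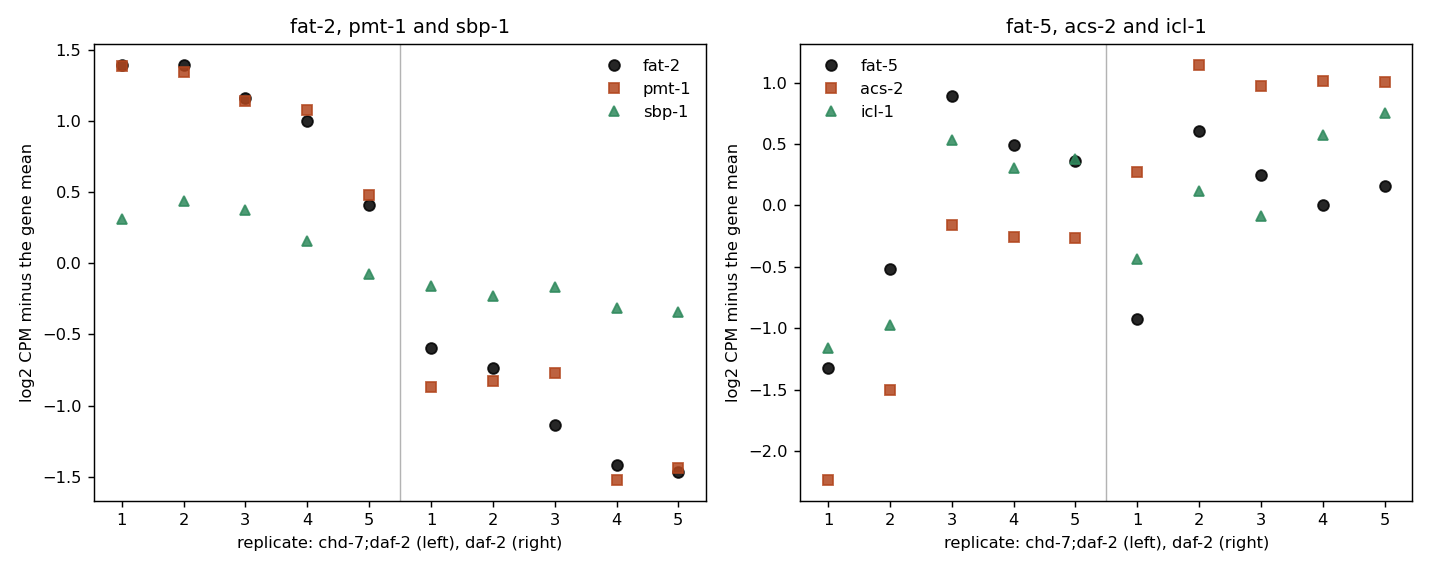
Log2 CPM minus the gene's mean over 10 libraries, for fat-2 with pmt-1 and sbp-1 and for fat-5 with acs-2 and icl-1, with chd-7;daf-2 replicates 1 to 5 on the left of the line and daf-2 replicates 1 to 5 on the right. Points of fat-2 and pmt-1 lie close in most libraries (root mean square difference 0.16) and farthest apart in daf-2 replicate 3 (-1.14 for fat-2 and -0.77 for pmt-1), while sbp-1 spans a narrower range, and fat-5, acs-2 and icl-1 are each lowest in chd-7;daf-2 replicates 1 and 2 within that genotype.

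Other genes that the receptor NHR-49 is known to control went both ways, with 1 of 5 tested higher and 2 lower (median -0.26). The shares over all genes tested were 17.9% higher and 18.3% lower. The mitochondrial acyl-CoA synthetase gene acs-2 had 327, 544, 1379, 1286 and 1277 CPM in the double mutant, against 1853, 3399, 3024, 3103.5 and 3090.3 CPM in daf-2. The groups did not overlap, and the log2 fold change was -1.59 ± 0.37 (SE, adjusted p = 0.00736). The hydroxyacyl-CoA dehydrogenase gene hacd-1 was lower by a like amount (-1.64 ± 0.31, adjusted p = 0.00255). The carnitine palmitoyltransferase gene cpt-5 rose by 3.07 ± 0.48 on the log2 scale, with 4.87 ± 2.56 CPM in the double mutant and 0.577 ± 0.284 CPM in daf-2 (adjusted p = 0.000695), and its daf-2 level lies near the counting limit.

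**Figure D5:**
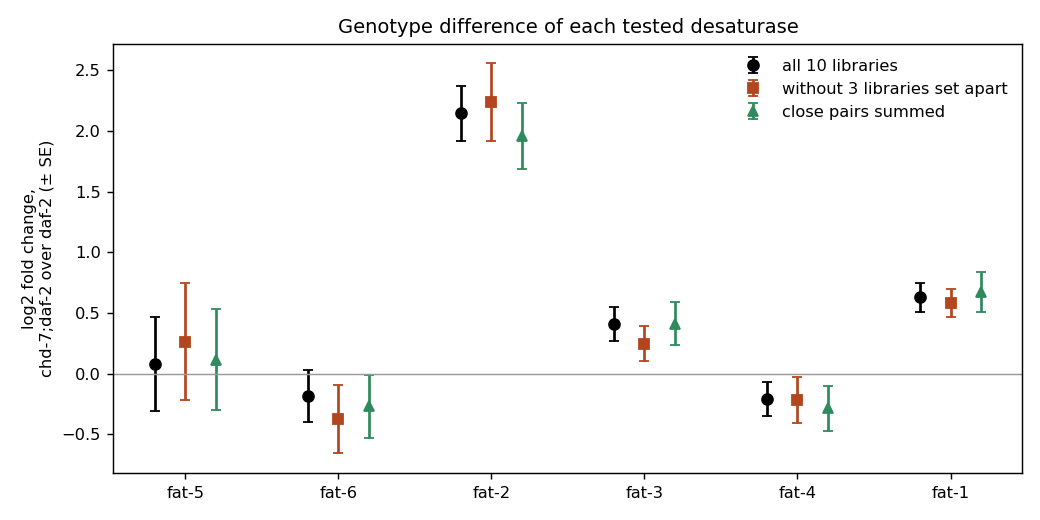
Log2 fold change of chd-7;daf-2 over daf-2 with its SE for the 6 tested desaturases, in all 10 libraries, without the 3 libraries set apart, and with close pairs of libraries summed. The value of fat-2 lies between 1.96 and 2.24 and that of fat-1 between 0.58 and 0.67 in the 3 fits, and fat-4, fat-5 and fat-6 were called in none of them.

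Markers of some tissues and cell types also differed between the genotypes. For comparison, 17.9% of all genes tested were called as higher and 18.3% as lower. Of 16 intestine markers, 2 were higher and 6 lower in the double mutant. Their summed level was 1486 to 1651 CPM in the double mutant and 1811 to 2074 CPM in daf-2, without overlap. Their mean log2 levels, relative to the daf-2 mean, did overlap (-0.33 to -0.07 in the double mutant and -0.13 to 0.08 in daf-2). Of 9 tested hypodermis markers 5 were higher and none lower, and their summed level was 724 to 978 CPM in the double mutant and 547 to 766 CPM in daf-2. These sums overlapped, while the mean log2 levels of the hypodermis markers did not (0.26 to 1.12 in the double mutant and -0.06 to 0.09 in daf-2). Body wall muscle markers were higher for 10 of 12 and lower for none, with sums of 5224 to 7218 CPM in the double mutant and 1588 to 3010.2 CPM in daf-2. Of 11 tested neuron markers 2 were higher and none lower. Their sums overlapped (3255 to 4084 CPM in the double mutant and 2835 to 4114 CPM in daf-2). The mean log2 levels of the neuron markers overlapped too (0.06 to 0.31 in the double mutant and -0.24 to 0.25 in daf-2). Of 15 germline markers 11 were lower and none higher, with sums of 114 to 437 CPM in the double mutant and 370.4 to 904 CPM in daf-2. All 4 tested yolk and uterine-type genes were lower, with sums of 5.73 to 34.6 CPM in the double mutant and 82.7 to 562 CPM in daf-2. The markers bli-1 and unc-18 were listed at 0 in every library, as were 1512 genes in all. The part of these tissues in the desaturase results was not tested, and in RNA of whole animals fewer cells of a type and less RNA per cell cannot be told apart.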

How the data were processed

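Each library has 1 deposited table, in which the authors give the raw count of reads for every gene with no scaling. The submitters' processing notes name FastQC (0.11.5) for read quality, HTSeq (0.9.1), STAR (2.5.4a) and DESeq2 (1.20.0), without roles. Per the labels' protocols, TRIzol was used for RNA and an NEBNext Ultra II kit for the libraries. Genome build, annotation and strand setting: not given in the sources used here. Tallies that name no gene stayed out of library sizes and tests. Their shares of all reads per library were 2.94% to 5.70% (outside genes), 2.07% to 2.30% (ambiguous) and 5.53% to 11.2% (several alignments).

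The tests used edgeR 4.0.16 under R 4.3.3, with filterByExpr (minimum count 10, minimum total 15), TMM scaling, and the robust quasi-likelihood F test. Genotype was the only factor, p-values were adjusted by Benjamini-Hochberg over 12499 genes, and the threshold was 0.05. Standard errors were obtained as the absolute log2 fold change over the root of F, and 95% intervals used the test's degrees of freedom. Log2 CPM had a prior count of 2. Positions and exonic lengths are Ensembl's for WBcel235, and the annotation behind the counts can differ from it. Ratios of 2 genes were tested with exact permutation over all 252 assignments of libraries, adjusted over the 3 ratios that could be computed of 4 planned. The procedures were also run on simulated data whose libraries were drawn independently, without close pairs or libraries set apart. That run therefore cannot show how the p-values behave if libraries here depend on each other.

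The members and gene lists were chosen with earlier results of these data known. Named genes were the members, the called genes of each pathway list (or the 2 most abundant where none was called) and the 3 nearest profiles of each called member, with exceptions marked. The alternatives were limma-voom with quality weights (limma 3.58.1), DESeq2 1.42.0, other scalings and filters, the replicate number as a block, leaving out each library or 3 libraries, and summing close pairs. Those for the pathway lists and their genes were chosen after seeing the data.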

Additional observations from a re-analysis of the deposited data

Results flagged for a closer look

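In 18 sets of 5 libraries (6 members and 3 ratios in each genotype), 3 values lay far from the other 4 of their genotype by Dixon's criterion. Chance alone gives about 5% of sets only where the sets are independent and their values normally distributed. The sets here share counts and libraries, so the 3 values are not compared with that rate. These 3 values came from 2 libraries, neither of them among the 3 set apart. In daf-2 replicate 1, fat-6 was at 621 CPM, against 364 to 391 CPM in the other daf-2 libraries. The same library held 377 CPM of fat-4, against 253 to 287 CPM in the others. In chd-7;daf-2 replicate 5 the log2 ratio of fat-1 to fat-2 was 0.64, against -0.43 to -0.15 in the other chd-7;daf-2 libraries, and that library also had the lowest fat-2 level of its genotype (392 CPM) and the highest fat-1 level (614 CPM).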

How the results depend on the processing

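The calls of fat-1 and fat-2, and the directions of fat-1, fat-2, fat-3, fat-4 and fat-6, were the same under every alternative run. For fat-3 the log2 fold change of 0.41 missed the threshold without the 3 libraries set apart (0.25) and with close pairs summed (0.41), and it ranged from 0.31 to 0.47 without each library in turn. The uncalled value of fat-5 changed sign with limma-voom (-0.11), and ranged from -0.17 to 0.30 without each library. With close pairs summed, 2631 genes were called in all, against 4523. Without the 3 libraries set apart, the ratio differences were -1.67 for fat-1 over fat-2 (adjusted p = 0.171) and -0.45 for fat-4 over fat-3 (adjusted p = 0.214), by exact permutation with fewer libraries. Without each library in turn, the ratio difference ranged from -1.70 to -1.38 for fat-1 over fat-2, from -0.74 to -0.55 for fat-4 over fat-3 and from -0.21 to 0.48 for fat-5 over fat-6. The 7 pathway lists gave 15 calls, and 11 to 18 under the alternatives. Their tested genes numbered 10 (regulators), 3 (cytochrome b5), 10 (elongation), 4 (fatty acid synthesis), 5 (phosphatidylcholine), 5 (NHR-49 targets) and 2 (sphingolipid desaturases). Over all genes tested, 36.2% were called in the main fit. The causes were not tested.

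Whether the replicate numbers pair the libraries is not settled by these values. Deviations of same-numbered libraries correlated at 0.30, 0.33, -0.19, -0.18 and 0.24 for numbers 1 to 5, and 2 of 5 correlated best with their own number. With the number as a block, the SE of fat-2 was 0.11 (0.23 in the main fit) and that of fat-3 was 0.16 (0.14 in the main fit). With the replicate number as a block, 4764 genes were called, fat-3 missed the threshold (0.42, adjusted p = 0.0737) and the log2 fold change of fat-5 was -0.020. In the paired exact sign-flip test, whose smallest p is 0.0625, the fat-1 over fat-2 difference (-1.51) and the fat-4 over fat-3 difference (-0.63) had adjusted p = 0.0938 each.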

Other observations

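Together with fat-5, 2 genes of fat use were low in the same libraries, and they were chosen after their values were seen. The glyoxylate cycle gene icl-1 had 1063, 1205, 3430, 2924 and 3085.5 CPM in the double mutant, against 1752, 2569, 2230.1, 3517 and 3995 CPM in daf-2 (log2 fold change -0.26 ± 0.35, SE, adjusted p = 0.582 by edgeR). The genes fat-5, icl-1 and acs-2 were each lowest in chd-7;daf-2 replicate 1, next lowest in replicate 2, and in daf-2 lowest in replicate 1. The read counts of chd-7;daf-2 replicates 1 and 2 were close to each other over all genes (chi-square per degree of freedom 5.55). The part of that closeness in these values was not tested.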
